A study of Mus musculus with 4 samples.

Results

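Interneurons derived from the caudal ganglionic eminence (CGE) were examined in single-nucleus transcriptomes of embryonic mouse cortex, taken medially at E16.5. They were selected on raw transcript counts, as nuclei with 1500 to 60000 transcripts that held at least 5 transcripts of Adarb2, at least 2 of Gad1 and Gad2 together, 0 of Lhx6, 0 of Sst, at most 1 of Ebf1 and at most 1 of Mki67 and Top2a together. This rule chose 705 of 29656 retained nuclei, here called CGE nuclei. They were set against 1927 nuclei with at least 2 transcripts of Lhx6 and at least 2 of Gad1 and Gad2, called MGE nuclei after the medial ganglionic eminence. Adarb2 encodes an RNA-binding protein of the adenosine deaminase family, Gad1 and Gad2 encode the enzymes that make GABA, and Lhx6 encodes the transcription factor that marks MGE-derived interneurons. These genes, and the genes that overlap them in the annotation, chose the nuclei, so their levels are a description, they were left out of the tests between populations and classes of nuclei, and nothing is read from them between genotypes.

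Inhibitory neurons of the cortex come from several progenitor zones of the ganglionic eminences. The MGE gives rise to SST+ and parvalbumin+ cells under the control of Nkx2-1 and Lhx6. The CGE, whose cells use Prox1, Nr2f2 and Sp8, gives rise to the VIP+, neurogliaform and other superficial interneurons, which as a class carry the serotonin receptor Htr3a.

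The groups were 2 libraries of Dnmt1 KO embryos (Sst-Cre, tdTomato and loxP-flanked Dnmt1) and 2 libraries of control embryos (Sst-Cre and tdTomato alone), all C57BL/6J and all E16.5, with 1 brain per library. Both genotypes carried Cre and the reporter. Because Sst drives Cre in postmitotic cells of the Sst lineage, Dnmt1 deletion was directed at MGE-derived cells and not at the CGE lineage, and recombined nuclei were not identified because the gene table used here has no entry for tdTomato or Cre. Values of the 4 libraries are given below in the order Dnmt1 KO replicate 1, Dnmt1 KO replicate 2, control replicate 1 and control replicate 2.

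Retained nuclei numbered 5640, 12064, 7047 and 4905, and CGE nuclei 33, 342, 257 and 73. The summed CGE nuclei held 379263, 3643239, 2965169 and 1387521 transcripts, so that Dnmt1 KO replicate 1 gives the least precise values. Median depth of a CGE nucleus was 11297, 9109, 9403 and 16454 transcripts, against 11960, 10765, 11177 and 17536.5 in MGE nuclei. Control replicate 2, the only library of batch 2, was the deepest, so batch and genotype are partly mixed. No barcode was shared between libraries. Levels are given as CPM, a gene's transcripts scaled to a common total of all transcripts of the summed nuclei of a library, or of 1 nucleus where single nuclei are described.

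Close to the Adarb2 limit, 18 otherwise eligible nuclei held 4 transcripts and stayed outside, and 12 with 5 transcripts were inside. Most members lay far above it, with a median of 301, 198.5, 89 and 459 Adarb2 transcripts per nucleus. Control replicate 1 had the lowest median.

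CGE nuclei made up 0.585% (95% exact binomial interval 0.403 to 0.821), 2.83% (2.55 to 3.15), 3.65% (3.22 to 4.11) and 1.49% (1.17 to 1.87) of retained nuclei. The lowest library was a Dnmt1 KO and the highest a control, with the other KO between both controls, so the genotypes overlapped. The mean was 1.71% ± 1.59 (SD, n = 2) in Dnmt1 KO and 2.57% ± 1.53 in controls, −0.858 percentage points apart (exact permutation test, two-sided, p = 0.667, where 0.333 is the smallest p that 2 libraries against 2 allow). Among CGE and MGE nuclei together, the CGE share was 12.5%, 29.6%, 33.4% and 16.48%, or 21.1% ± 12.05 in Dnmt1 KO and 24.9% ± 11.9 in controls (difference −3.86 percentage points, exact permutation p = 0.667). Without Dnmt1 KO replicate 1 the 2 differences became 0.267 and 4.66 percentage points, and without control replicate 1 they became 0.222 and 4.59. Without Dnmt1 KO replicate 2 they were −1.98 and −12.4, and without control replicate 2 −1.94 and −12.3. With only the CGE nuclei low in Meis2, described further on, they were −0.046 and 2.04. Both genotype differences were smaller than the spread between libraries of 1 genotype. The binomial intervals cover counting error only.

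**Figure D1:**
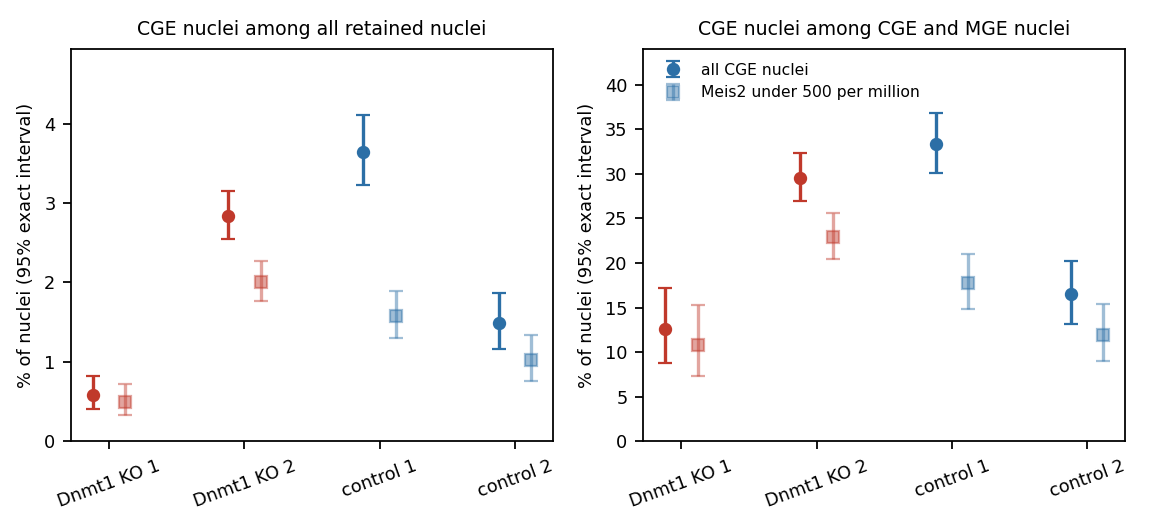
Share of CGE nuclei in each library, as percent of all retained nuclei (left) and of CGE and MGE nuclei together (right), with exact 95% intervals. Circles are all CGE nuclei and pale squares are those with Meis2 under 500 CPM in the nucleus; on the left, control 1 drops from 3.65% to 1.58% in the second set, and KO 2, at 2.01%, is then the highest library.

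CGE markers that the rule did not use were present. Prox1, the homeodomain factor of CGE-derived cells, read 179, 182, 158 and 290 CPM in CGE nuclei and 9.49, 11.2, 18.6 and 4.71 CPM in MGE nuclei. Excitatory nuclei were taken as those with at least 5 transcripts of Neurod2 and Neurod6 and 0 of Gad1, Gad2 and Eomes (median depth 15946 to 26047 transcripts). At least 1 Prox1 transcript was found in 47.2% of CGE nuclei, against 6.54% of MGE nuclei and 2.99% of excitatory nuclei. For Sp8, a zinc-finger factor of CGE and dorsal LGE progeny, these shares were 18.7%, 0.675% and 0.365%, and for Htr3a they were 21.1%, 3.94% and 0.0912%. Thinned to 5000 transcripts per nucleus, 38.7% of 661 CGE nuclei and 3.47% of 1871 MGE nuclei kept a Prox1 transcript. The MGE markers Sox6, Satb1, Maf, Nxph1 and Mef2c were each lower than in MGE nuclei, as given further on. Markers of oligodendrocyte precursors summed to 0 to 1.92 CPM, with Olig1 and Sox10 at 0 in all 4 libraries. Microglial markers reached 8.78 to 19.5 CPM and endothelial markers 3.60 to 9.61 CPM. The radial glia markers summed to 116 to 186 CPM, against 86.3 to 162 CPM in MGE nuclei. Of 5 tested, the progenitor factors Sox2 (log2 fold change 0.87) and Pax6 (1.70) were higher in the test described further on. That is 40% called, against 9.47% of all tested genes. Only the CGE rule set a limit on Mki67 and Top2a. The Cajal-Retzius markers, which include Reln, summed to 461 to 1286 CPM against 588 to 1000.4 CPM, with 0 of 2 tested called, against the same 9.47%. The 9 excitatory markers summed to 108, 425, 430 and 763 CPM, against 276, 481, 441 and 732 CPM in MGE nuclei. Excitatory nuclei had 1988 to 3321 CPM, but they were chosen by Neurod2 and Neurod6, which are in this list.

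One marker list set some members apart. The 12 striatal or LGE (lateral ganglionic eminence) markers summed to 2808, 4007, 8832 and 3642 CPM in CGE nuclei and to 960 to 1691 CPM in MGE nuclei, with control replicate 1 highest. Meis2, a homeodomain factor of LGE-derived and olfactory bulb neurons that excitatory neurons also express and a member of that list, read 962, 1238, 4094 and 1051 CPM. Per nucleus it was spread from 0 to over 4000 CPM. By limits set after these values were seen, 431 CGE nuclei had under 500 CPM of Meis2, 115 had 500 to 4000 and 159 had 4000 or more. The last class took 3, 47, 104 and 5 nuclei, which is 9.09%, 13.7%, 40.5% and 6.85% of the CGE nuclei of each library. Its nuclei were therefore mostly those of control replicate 1. Doublet calls covered 20.9% of the middle class, 5.67% of all CGE nuclei and 12.7% of MGE nuclei. The excitatory markers of the middle class summed to 570, 921, 805 and 1846 CPM. In the class under 500 CPM of Meis2 they summed to 61.3, 286, 280 and 284 CPM.

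**Figure D2:**
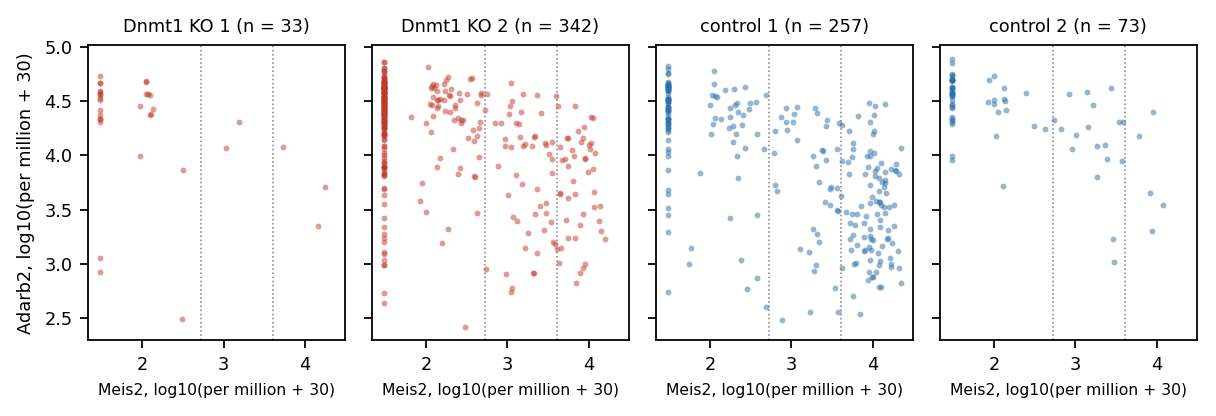
Meis2 (x axis) and Adarb2 (y axis) in each of the 705 CGE nuclei, both as log10 of CPM plus 30, in 1 panel per library, with dotted lines at 500 and 4000 CPM of Meis2. Nuclei at the right of the second line number 3, 47, 104 and 5, and lie lower for Adarb2 than those at the left.

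The Meis2-high nuclei differed from the Meis2-low nuclei in more than Meis2. Foxp2, a forkhead factor of striatal projection neurons, read 1436, 5033, 3861 and 8230 CPM in the Meis2-high and 12.3, 67.0, 63.8 and 74.1 CPM in the Meis2-low nuclei. Esrrg, Meis1, Zfhx3 and Foxp4 were likewise above their Meis2-low level in all 4 libraries, with pooled values of 1171 against 59.0, 923 against 79.7, 872 against 33.2 and 329 against 11.4 CPM. Six3, a striatal progenitor factor, pooled to 54.6 against 0.814 CPM. In the opposite direction, Reln, which encodes the secreted glycoprotein reelin of superficial interneurons, read 33.4, 78.5, 32.5 and 79.0 against 1268, 1580, 1045 and 1353 CPM. Npas1, Htr3a, Maf, Nr3c2 and Ndnf were below their Meis2-low level in all 4 libraries as well (pooled 5.92 against 158, 4.60 against 51.1, 9.21 against 120, 85.5 against 1516 and 2.63 against 58.8 CPM). The Meis2-high sums of Dnmt1 KO replicate 1 and control replicate 2 held only 29949 and 63308 transcripts, so low values there rest on few or 0 transcripts. In Dnmt1 KO replicate 1, 1 of the 3 Meis2-high nuclei was a doublet call. Dlx6os1, an RNA of the GABAergic lineage, pooled to 3992 and 4472 CPM, and Sp8 to 15.1 and 25.4 CPM, in the Meis2-high and Meis2-low nuclei respectively. These classes were cut from Meis2 and from nuclei that share libraries, so no test was made. The Meis2-high nuclei thus held less Prox1 (pooled 82.9 against 255 CPM, lower in 3 of 4 libraries), Nr2f2, Npas1 and Htr3a than the Meis2-low nuclei, which goes against the CGE label for this subset, and they are named here by Meis2 alone. Each comparison below was also made with the 431 Meis2-low nuclei only, an alternative added after the data were seen.

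Compared with MGE nuclei over the same 4 libraries, CGE nuclei had 496 genes higher (4.5% of 11015 tested) and 547 lower (4.97%) at an adjusted p under 0.05 in edgeR's quasi-likelihood test with library as a block and Benjamini-Hochberg adjustment. The genotype tests within CGE nuclei and within MGE nuclei below use the same tool without a block. The direct test of whether the genotype difference departs between these populations keeps library as a block. The median log2 fold change over all genes was −0.01. All 1043 genes were read from nuclei sorted by Adarb2 and Lhx6, so the contrast describes what accompanies those genes. The 20 genes named by size kept their direction and their call in each of the 16 alternatives run for them. They were chosen by size and by the same direction in all 4 libraries, which favors such an outcome.

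Among 48 tested transcription factors of interneurons, 20 were higher in CGE nuclei and 9 lower (60.4% called, against 9.47% of all tested genes). The median log2 fold change was 0.47. Sp8 showed the largest rise of this list, from 0, 0.433, 1.06 and 0.496 CPM in MGE nuclei to 26.4, 19.2, 19.2 and 49.7 CPM (log2 fold change 5.55 ± 0.42 SE, adjusted p = 0.000146). Pbx3, a partner of Meis and Hox factors, rose from 23.0, 102, 120 and 46.3 CPM to 1084, 1510, 2146 and 1477 CPM (4.61 ± 0.27, adjusted p = 5.19e-05), and Prox1 by 4.22 ± 0.39 (adjusted p = 0.000425). All 4 libraries were above all MGE values for these 3 genes. Nr2f2, the COUP-TF of the CGE, was higher by 2.18 ± 0.27, its paralog Nr2f1 by 0.85 ± 0.08, and Npas1, a bHLH-PAS factor, by 0.97 ± 0.19. St18, Meis1, Nfib, Zeb1 and Klf7 were also higher. Within the Dlx family, which sets GABAergic fate, Dlx1 (1.29 ± 0.15), Dlx5 (0.78 ± 0.16), Dlx6 (1.36 ± 0.17) and the antisense RNA Dlx6os1 (1.70 ± 0.12) were higher, whereas Dlx2 did not pass (0.58 ± 0.20, adjusted p = 0.132). The Dlx5 call was absent without control replicate 1 (adjusted p = 0.111) and with doublet calls left out (adjusted p = 0.0727). Dlx6os1 overlaps Dlx6, and their reads cannot be told apart without strand.

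Factors of the MGE lineage were lower. Sox6, which acts downstream of Lhx6, read 330, 516, 594 and 168 CPM in CGE nuclei and 2332, 2010, 2604 and 1972 CPM in MGE nuclei (log2 fold change −2.57 ± 0.25, adjusted p = 0.000481). Satb1 (−2.26 ± 0.14), Maf (−1.78 ± 0.19) and Mef2c (−1.72 ± 0.09), which support the maturation of SST+ and parvalbumin+ cells, were lower too, and so were Rora, Tox and Tox2 (−3.10 ± 0.22), of which Tox lost its call without control replicate 1 and with doublet calls left out. The 2 further MGE markers Nkx2-1 and Lhx8 were too low to test, at 0 CPM in 3 CGE sums and at 1.69 and 8.09 CPM in that of control replicate 1. With Meis2-low nuclei only, 19 of these factors were higher and 18 lower, the list median became −0.13, and 3 calls turned: Meis2, Foxp2 and Foxp4 were higher than in MGE nuclei over all CGE nuclei and lower in Meis2-low nuclei. For Meis2 itself that lower call was fixed by the selection and is no result. The limit was set on CGE nuclei alone and left out nuclei high in Foxp2 and Foxp4, which favors their lower calls too. How far these 2 calls rest on it was not tested. Over all genes, 1219 of 10450 were called in that alternative (11.7%). All 7 higher CGE markers (Prox1, Nr2f2, Sp8, Npas1, Htr3a, Cxcl14 and Nr2f1, of 8 tested) and all 6 lower MGE markers (of 6) kept their calls there. The Meis2-high nuclei left out held less Prox1, Nr2f2, Npas1 and Htr3a, so the limit favored the calls of these genes.

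Genes were ranked among those with a mean of 50 CPM or more in the higher population and the same direction in all 4 libraries. Symbols of Gm plus digits or ending in Rik were left out. The genes furthest apart gave a mixed profile. Of those higher in CGE nuclei, Nr3c2, which encodes the mineralocorticoid receptor, had the largest fold (chromosome 8, 77625576 to 77971863 on GRCm39). It read 1793, 1048, 543 and 1544 CPM in CGE nuclei against 9.79, 37.2, 33.0 and 39.6 CPM in MGE nuclei (log2 fold change 5.24 ± 0.47, adjusted p = 0.000355). Sorcs3, a sorting receptor of the Vps10 family, read 2297, 1404, 890 and 1908 against 21.7, 63.5, 89.8 and 24.1 CPM (5.13 ± 0.57). The lowest CGE value of both genes belonged to control replicate 1 and still exceeded each MGE value. Mbnl3, a splicing regulator (4.24 ± 0.69), Pdzrn3, a ubiquitin ligase of synapses and muscle (3.99 ± 0.31), Wnt5a, a secreted Wnt ligand (3.38 ± 0.25), Sdk2, an adhesion molecule of the immunoglobulin superfamily (3.33 ± 0.23), Crb1, a polarity protein (3.28 ± 0.34), and Synpr, the synaptic vesicle protein synaptoporin (3.28 ± 0.20), completed the highest 10 above that level, with Pbx3 and Prox1.

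Among the lowest 10, Nxph2 and Nxph1 encode neurexophilins, secreted ligands of α-neurexins. Nxph1 fell from 7720, 7253, 7098 and 6396 CPM in MGE nuclei to 306, 145, 179 and 74.95 CPM in CGE nuclei (−5.49 ± 0.26, adjusted p = 2.54e-05). Nxph2 gave 3 transcripts in all CGE nuclei and 10236 in MGE nuclei, 938 times less per transcript sequenced (95% counting interval 321 to 4551). Thbs1, which encodes the matrix protein thrombospondin 1, gave 3 and 1698 transcripts (156 times less, interval 53.2 to 756). Ackr3, the scavenger receptor for the chemokine CXCL12, fell from 107, 78.5, 131 and 107 CPM to 2.64, 1.37, 3.37 and 0.721 CPM (−5.65 ± 0.19, adjusted p = 5.63e-06). Cntnap3 (−6.20 ± 0.38), the homeobox factor Mkx (−5.99 ± 0.17), the AMPA receptor auxiliary subunit Cacng3 (−5.19 ± 0.38), the kainate receptor auxiliary subunit Neto1 (−5.11 ± 0.23), Ptchd4 (−4.63 ± 0.22) and Fam135b (−4.05 ± 0.41) were the others.

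**Figure D3:**
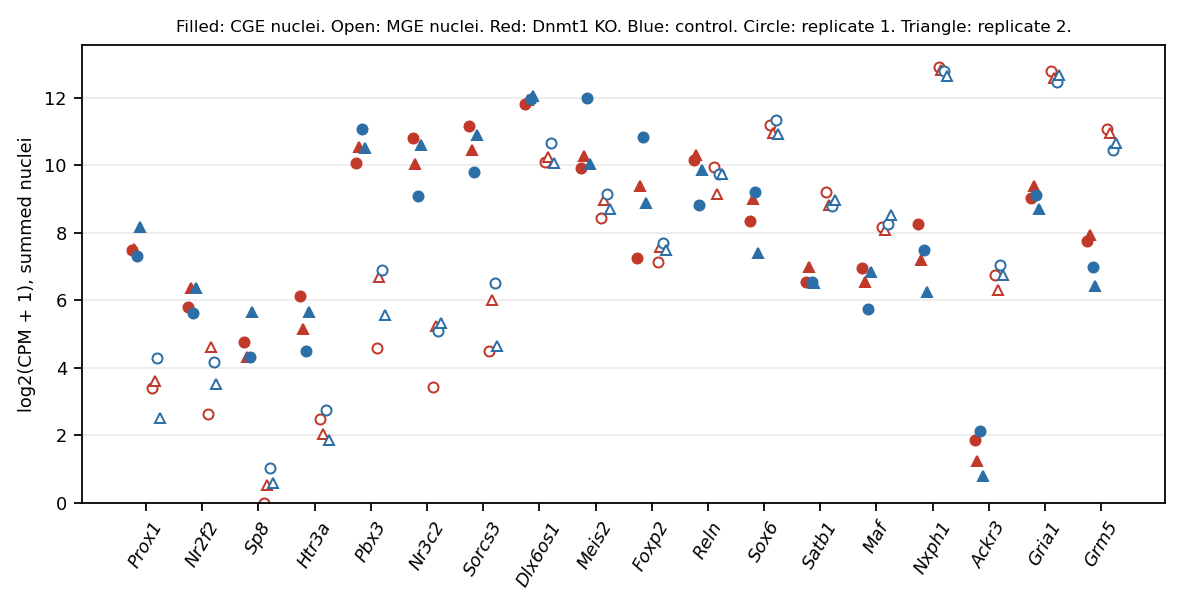
Level of 18 genes in summed CGE nuclei (filled) and MGE nuclei (open) of each library, as log2 of CPM plus 1 on the y axis, with red for Dnmt1 KO, blue for control, circles for replicate 1 and triangles for replicate 2. Prox1, Sp8, Nr3c2 and Sorcs3 lie higher in CGE nuclei of all 4 libraries, Nxph1, Gria1 and Grm5 lie lower, and control replicate 1 stands apart for Meis2 (4094 CPM) and Foxp2 (1820 CPM).

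Genes that later divide CGE-derived cells into subtypes were mostly low at this age. Vip and Lamp5 were each found in 1 of 705 CGE nuclei (0.142%), a share no higher than in excitatory nuclei for Lamp5 (0.693%). Sncg, Tac2 and Crh were found in 0 of 705, which allows a share of nuclei with a transcript of up to 0.426% when 3 counts are taken as the limit, or 0.522% by the exact interval. Of 9 testable subtype genes, Cxcl14 and Htr3a were higher than in MGE nuclei and Npy and Calb1 lower. That is 44.4% called, against 9.47% of all tested genes. Cxcl14, a chemokine of CGE-derived superficial cells, gave 87 transcripts in CGE nuclei and 1 in MGE nuclei, a ratio of 316 (counting interval 55.3 to 12636). Npy, the neuropeptide of several SST+ and neurogliaform cells, gave 3 and 491 transcripts, 45.01 times less per transcript sequenced in CGE nuclei (15.3 to 219). Htr3a read 68.6, 34.6, 21.6 and 49.0 CPM against 4.59, 3.12, 5.67 and 2.604 CPM (3.29 ± 0.35, adjusted p = 0.000793). Reln (1142, 1279, 457 and 930 CPM in CGE nuclei) did not differ past the threshold (0.16 ± 0.28, adjusted p = 0.84) and neither did Ndnf (1.74 ± 0.53, adjusted p = 0.0903). Both were called higher when only Meis2-low nuclei were compared, a limit that left out nuclei with little of either.

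Receptors for transmitters differed in both directions. Of 31 tested GABA and glutamate receptor genes, 5 were higher in CGE nuclei and 10 lower (median log2 fold change −0.26). That is 48.4% called, against 9.47% of all tested genes. The AMPA receptor subunit Gria1 read 525, 675, 555 and 416 CPM against 7132, 6150, 5638 and 6516 CPM in MGE nuclei (−3.54 ± 0.15, adjusted p = 1.66e-05), and Gria4 (−2.23 ± 0.12) and Gria3 (adjusted p = 0.0373) were lower too, whereas the Gria2 difference was −0.08 ± 0.09 and did not pass, although it did with Meis2-low nuclei only (−0.36, adjusted p = 0.039). The metabotropic receptor Grm5 (−3.49 ± 0.19) and the kainate receptor subunits Grik1 (−2.47 ± 0.43) and Grik2 (−1.76 ± 0.11) were lower, while the kainate subunit Grik4 was higher (1.52 ± 0.18). Among NMDA receptor subunits, Grin3a was lower (−1.86 ± 0.35), whereas 2 were higher, Grin2d (166, 84.5, 64.8 and 146 CPM against 9.18, 12.2, 12.1 and 16.4 CPM, 3.03 ± 0.22) and Grin2a (0.95 ± 0.14), and so were Grm8 (2.82 ± 0.48) and the GABA-A subunit Gabra2 (1.16 ± 0.26). GABA-A subunits Gabrg3 (−1.96 ± 0.23) and Gabra3 (−0.61 ± 0.15) were lower. The Gabra3 call was absent with Meis2-low nuclei only (adjusted p = 0.148) and without control replicate 1 (adjusted p = 0.129), and the Gria3 call with doublet calls left out (adjusted p = 0.194).

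For neuromodulators, 5 of 15 tested receptor genes were higher and 3 lower (53.3% called, against 9.47% of all tested genes). Cnr1, the cannabinoid receptor of CCK+ interneurons, read 635, 392.2, 225 and 665 CPM against 71.3, 71.9, 74.4 and 100 CPM (2.48 ± 0.22, adjusted p = 0.000331). The adrenergic receptor Adra1a (3.12 ± 0.22), the NPY receptor Npy1r (2.83 ± 0.37) and the nicotinic subunit Chrna7 (1.38 ± 0.15) were higher besides Htr3a. Within serotonin receptors the direction differed by gene, as Htr2a (−3.24 ± 0.27) and Htr4 (−1.05 ± 0.24) were lower. The Htr4 call was absent with Meis2-low nuclei only (adjusted p = 0.556) and without control replicate 1 (adjusted p = 0.0768). The muscarinic receptor Chrm3 fell from 601, 344, 431 and 596 CPM to 156, 37.9, 82.3 and 69.9 CPM (−2.66 ± 0.19, adjusted p = 0.00013).

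Of 31 migration and guidance genes, 8 were higher and 6 lower (45.2% called, against 9.47% of all tested genes). With Meis2-low nuclei only, 6 were higher and 10 lower. Slit1, a repulsive ligand for Robo receptors, read 396, 395, 399 and 466 CPM in CGE nuclei against 49.6, 64.7, 74.8 and 48.9 CPM (2.82 ± 0.15, adjusted p = 3.25e-05), and its receptor Robo1 was higher by 1.03 ± 0.10. The semaphorin coreceptors Nrp2 (1.54 ± 0.30) and Plxna4 (1.27 ± 0.12) and the receptor tyrosine kinase Met (1.38 ± 0.21) were higher, whereas the ligand Sema3a was lower (−2.26 ± 0.28). Both receptors of CXCL12 were lower, Ackr3 as above and Cxcr4 at 10.5, 15.1, 8.77 and 19.5 CPM against 19.0, 19.3, 25.5 and 39.6 CPM (−0.89 ± 0.21, adjusted p = 0.0355). The Cxcr4 ranges overlapped, and its call was absent with Meis2-low nuclei only and without control replicate 1, and the Efnb2 call without that library. Efna5 (−1.15 ± 0.08), Efnb2 and Ntrk2 were the other lower members.

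Adhesion and synapse organizers were lower more often than higher, with 15 of 41 lower, 5 higher and a median log2 fold change of −0.45. That is 48.8% called, against 9.47% of all tested genes. Besides both neurexophilins, the receptor phosphatase Ptprt fell from 2666, 3046, 2314 and 2646 CPM to 585, 448, 302 and 322 CPM (−2.73 ± 0.14, adjusted p = 3.18e-05), and the contactins Cntn1, Cntn3, Cntn4 and Cntn6 were lower as well (log2 fold changes −1.14 to −1.57, with the Cntn3 call absent without control replicate 1). Pcdh9 (1.47 ± 0.14), Cdh4 (1.49 ± 0.19), Ncam2 (1.46 ± 0.08) and Lrrtm3 were higher, along with Sorcs3. Ion channel genes gave 7 higher and 9 lower of 35 (45.7% called, against 9.47% of all tested genes). The calcium channel auxiliary subunit Cacna2d3 (1.56 ± 0.10), the A-type potassium channel Kcnd2 (1.28 ± 0.12) and the cation channel Trpc4 (1.20 ± 0.14) were higher, whereas Kcnmb2 (−2.75 ± 0.20), Cacna2d2 (−2.06 ± 0.25), Kcnc2, which is typical of parvalbumin+ cells (−1.22 ± 0.14), and the calcium channel Cacna1a (−1.11 ± 0.08) were lower.

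**Figure D4:**
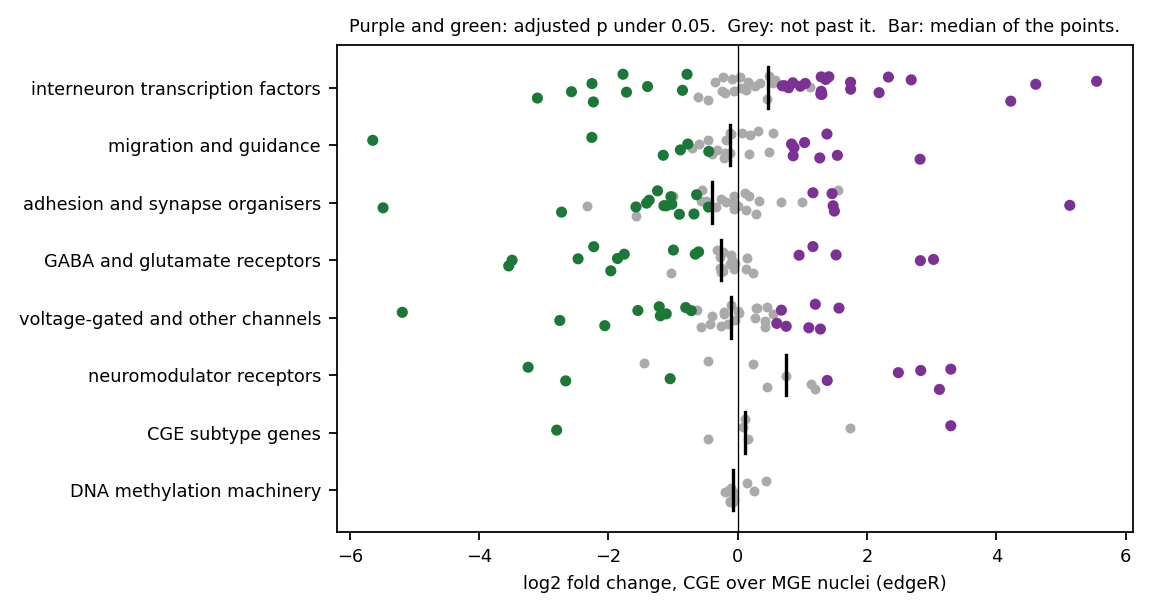
Log2 fold change of CGE over MGE nuclei (x axis) for the tested members of 8 gene lists (rows), with members past an adjusted p of 0.05 in purple (higher) or green (lower), the others in grey and the median of the points as a bar; genes with 3 or fewer transcripts in 1 population (Nxph2, Npy and Cxcl14) are left out. Transcription factors hold 20 higher and 9 lower calls, adhesion genes 5 and 15 with Nxph2 included, and the DNA methylation genes none.

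The DNA methylation machinery gave no call, with 0 of 13 tested genes past the threshold and log2 fold changes between −0.19 and 0.43. Over all tested genes, 9.47% were called. Dnmt1 itself read 55.4, 46.7, 54.3 and 51.9 CPM in CGE nuclei and 60.9, 48.4, 64.9 and 54.9 CPM in MGE nuclei (−0.11 ± 0.09, adjusted p = 0.588). Its count covers the whole gene and is no measure of the deleted part.

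Between genotypes, no gene passed the threshold in CGE nuclei. Of 9967 tested genes, edgeR called 0 (0%) and 314 had an unadjusted p under 0.05 (3.15%), with a smallest adjusted p of 0.981. DESeq2 called 4, all higher in Dnmt1 KO, among them Thsd7b, Cdh18 and Rspo2. Named by the smallest p at a mean of 20 CPM or more, Thsd7b, which encodes a thrombospondin-domain protein (chromosome 1, 129201039 to 130147015), read 258, 517, 80.9 and 98.7 CPM in CGE nuclei (log2 fold change 2.16 ± 0.33, edgeR adjusted p = 0.981). Both KO values lay above both control values, as they did for the adhesion gene Cdh18 (163, 81.2, 25.3 and 34.6 CPM, 1.97 ± 0.37, edgeR adjusted p = 1), the secreted protein gene Vwc2 (84.4, 90.3, 40.1 and 28.8 CPM, 1.35 ± 0.24) and the kinesin gene Kif26b (89.6, 66.4, 25.0 and 33.2 CPM, 1.41 ± 0.28). Cmss1 read 190, 227, 456 and 468 CPM (−1.12 ± 0.19) and the noncoding Gm28905 2.64, 8.78, 36.4 and 33.2 CPM (−2.15 ± 0.38), with both KO values below both controls. These genes were chosen by smallest p, which favors KO values beyond both controls. The share of all tested genes with such an order was not counted, so nothing is read from it. Cmss1 overlaps Filip1l.

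The count of calls moved with the libraries used. Leaving out control replicate 2 (all remaining libraries are of batch 1) gave 173 genes and leaving out control replicate 1 gave 99, each with the remaining control assumed to vary like the KO pair. With batch as a covariate, control replicate 2 is alone in its batch, so the genotype term rests on control replicate 1 as the only control. That fit is therefore no batch-adjusted comparison of both controls, and its calls are not read. The 2 controls held 40.5% and 6.85% Meis2-high nuclei, and with Meis2-low nuclei only 0 of 7739 genes were called. Whether this composition has a part in the genotype values was not tested.

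Gene groups showed no called member between genotypes. A list of candidate genes was taken from the study itself, which singled them out in Dnmt1-deficient cells of the Sst lineage, so it is not independent evidence of a direction. Of its 19 tested members, 0 were called in CGE nuclei, against 0% of all tested genes. An unadjusted p under 0.05 was found for 3, against 3.15% of all tested genes. The median log2 fold change was 0.17 against −0.01 over all genes. The 3 were Reln (1142, 1279, 457 and 930 CPM, 0.82 ± 0.33), the antisense RNA Kcnq1ot1 (604, 400.5, 295 and 365 CPM, 0.61 ± 0.25) and Mef2c (522, 473, 342 and 373 CPM, 0.49 ± 0.18). Both KO values lay above both controls for each of the 3. Their choice by p favors such an order, and its share over all tested genes was not counted. Other members of the list, without such a p, also had KO values above or below both controls. Nothing is therefore read from this order. Among Meis2-low nuclei Reln read 1268, 1580, 1045 and 1353 CPM, with the genotypes overlapping. The lowest fold change of the list was that of Dlx5 (−0.56 ± 0.35). Dlx6os1 read 3607, 3957, 4039 and 4248 CPM in CGE nuclei (−0.11 ± 0.18), and Erbb4, the neuregulin receptor of migrating interneurons, 18826, 19163, 13792 and 19350 CPM. The KO values of Dlx6os1 lay below both controls and those of Erbb4 between them. The DNA methylation list had 0 of 13 called (median −0.09), and Dnmt1 differed by −0.08 ± 0.23. The interneuron transcription factors had 0 of 47 called and a median of −0.29. The striatal or LGE markers, of which Meis2, Foxp2 and Pbx3 are also in that list, had 0 of 7 called, 6 of 7 negative and a median of −0.76. In MGE nuclei 7 of 7 were negative, with a median of −0.29. Meis2 in CGE nuclei was highest in control replicate 1 (4094 CPM). Control replicate 2 (1051 CPM) lay between the KO libraries (962 and 1238 CPM). The part of these markers in the other values was not tested.

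In MGE nuclei, which contain the Sst lineage, edgeR called 0 of 13436 genes (0%) with 689 at an unadjusted p under 0.05 (5.13%), and DESeq2 called Cmss1, Tmem132c and Tmem181c-ps. The populations share their libraries, so values are set side by side. Cmss1 read 227, 255, 531 and 680 CPM in MGE nuclei, with both KO values below both controls as in CGE nuclei. Thsd7b read 13.8, 62.9, 69.3 and 45.02 CPM there, with the genotypes overlapping. A direct test of whether the genotype difference departs between CGE and MGE nuclei called 0 of 11831 genes in edgeR (0%), with 253 at an unadjusted p under 0.05 (2.14%). Among genes with a mean of 20 CPM or more, the smallest p belonged to Thsd7b (interaction log2 2.78 ± 0.41, adjusted p = 0.94), and DESeq2 called Thsd7b and Rspo2.

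**Figure D5:**
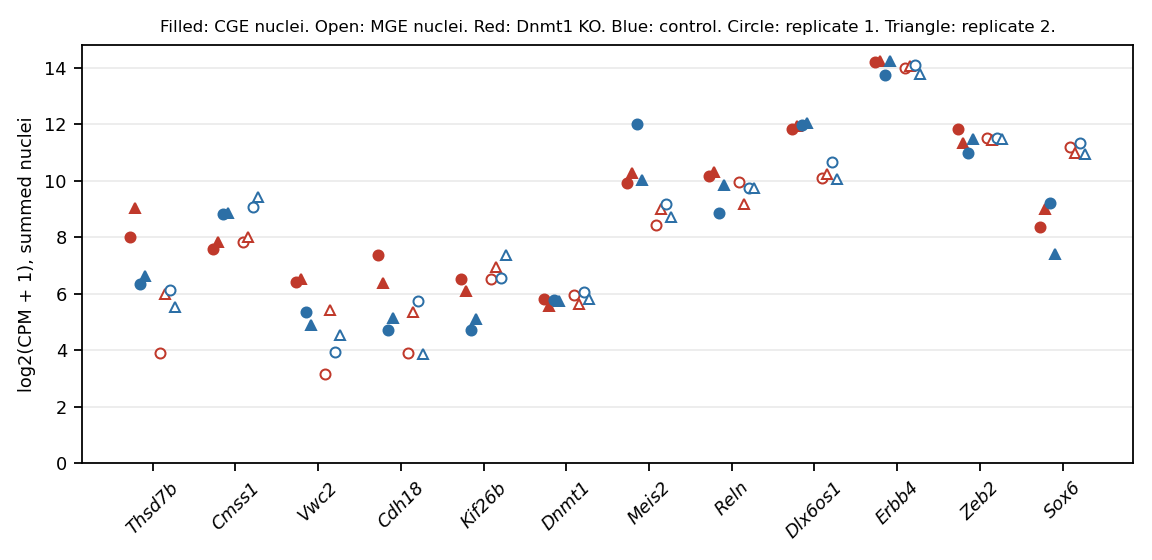
Level of 12 genes by library in CGE nuclei (filled) and MGE nuclei (open), as log2 of CPM plus 1 on the y axis, with red for Dnmt1 KO, blue for control, circles for replicate 1 and triangles for replicate 2. Of the genes chosen by smallest p, Thsd7b, Vwc2, Cdh18 and Kif26b lie higher and Cmss1 lower in both KO libraries in CGE nuclei. None passed edgeR's threshold, their choice by p favors such an order, and Cmss1 lies lower in MGE nuclei too.

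Variation among CGE nuclei was examined by Prox1. At least 2 Prox1 transcripts were held by 12, 123, 83 and 33 nuclei and 0 by 18, 174, 144 and 36, with median depths of 12379.5, 8778, 10139 and 16454 against 10373, 9520, 9237.5 and 16931.5 transcripts. Of 7303 tested genes, 48 were higher (0.657%) and 101 lower (1.38%) in the Prox1-positive nuclei, with library as a block and Prox1 and its overlapping antisense RNA left out. Abtb2, a BTB-domain gene that overlaps Nat10, rose from 23.5, 20.8, 22.8 and 26.5 CPM to 155, 119, 105 and 222 CPM (log2 fold change 2.59 ± 0.19, adjusted p = 0.00258). Nr3c2 was again higher (2914, 1666, 1077 and 2473 against 931, 588, 212 and 842 CPM, 1.77 ± 0.16, adjusted p = 0.00305), as were the lipid kinase gene Pip5k1b (2.11 ± 0.29), the secreted synaptic protein gene Lgi1 (1.74 ± 0.24), Mbnl3 (1.74 ± 0.36, adjusted p = 0.0488) and the noncoding Gm29683 (1.71 ± 0.27). The classes did not overlap across libraries for these 6 genes except Mbnl3.

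Lower in the Prox1-positive nuclei were Ntng1, the gene of the axon guidance protein netrin G1 (6.76, 31.4, 55.5 and 1.62 against 418, 609, 343 and 1198 CPM, −4.38 ± 0.65, adjusted p = 0.0161), the noncoding Gm32647 (−4.31 ± 0.50), the membrane protein gene Tmem132c (−4.28 ± 0.52), the protocadherin Dchs2 (−3.64 ± 0.31), the Robo ligand Slit3 (−3.53 ± 0.31) and the kainate subunit Grik1 (−3.03 ± 0.58). Of these 12 genes, Slit3 (−2.78) and Mbnl3 (1.61) lost their calls with Meis2-low nuclei only. Without control replicate 1, Pip5k1b, Lgi1, Gm29683 and Mbnl3 lost theirs, without control replicate 2 Gm29683, Grik1 and Mbnl3, without Dnmt1 KO replicate 2 Ntng1, Grik1 and Mbnl3, and without Dnmt1 KO replicate 1 Mbnl3. Of 46 transcription factors from the lists, 19.6% were called, against 2.04% of all tested genes. Higher were 3 (Npas3, Nfib and Zbtb16) and lower 6, among them Bcl11b, Meis1, Meis2, Foxp2 and Foxp4. None of those 6 was called among Meis2-low nuclei, where Foxp4 was not tested. There the log2 fold changes of Foxp2 (−1.96 to 0.54) and Meis1 (−1.01 to 0.31) changed sign. Erbb4 (0.95 ± 0.12), Dlx6os1 (0.63 ± 0.11), Slit1 (1.23 ± 0.14), Grin2d (1.33 ± 0.20), Cdh4 and Sorcs3 (1.20 ± 0.13) were higher with Prox1. Nrp2 (−1.43 ± 0.12), Gria1 (−2.46 ± 0.31), Cntnap2 (−1.79 ± 0.20), Kcnd2 (−1.36 ± 0.26) and Kcnj3 (−1.50 ± 0.17) were among those lower. With Meis2-low nuclei only, Grin2d (adjusted p = 0.0642), Npas3 (adjusted p = 0.0679) and Kcnd2 (−0.76, adjusted p = 0.0855) lost their calls. Without control replicate 1 these 3, Nfib, Zbtb16, Cdh4, Dlx6os1, Bcl11b, Meis1, Foxp2 and Foxp4 lost theirs, and Meis2 did with doublet calls left out, where its fold change was −1.88 (adjusted p = 0.0521). Reln was called lower among Meis2-low nuclei (−1.50, adjusted p = 0.0211), and not over all CGE nuclei (−1.06, adjusted p = 0.0732). The count of 149 calls fell to 65 without Dnmt1 KO replicate 2, to 52 without control replicate 1 and to 53 without control replicate 2.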

How the data were processed

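Nuclei of frozen medial cortex were barcoded with the Evercode WT kit (Parse Biosciences) and sequenced on a NovaSeq. The authors processed the reads with Trailmaker (version not given in the sources used here) against GRCm39 and deposited unfiltered transcript counts per barcode and gene, without normalization. The submitters' processing notes name R 4.4.1 and Seurat 5.0.1.9001. Here, barcodes with 1500 to 60000 transcripts were retained. The study's methods set this range on reads per cell, which was run as an alternative. Members and gene lists were chosen with earlier results of these data known. Counts were summed per library and population and tested with edgeR 4.0.16 (R 4.3.3; TMM, filterByExpr, quasi-likelihood test, Benjamini-Hochberg adjustment, threshold 0.05); standard errors were taken from the fold change and its test. The scripts were tested on simulated data. DESeq2 1.42.0 was an alternative. Doublets were called with scrublet (scanpy 1.11.5, expected rate 5%) and kept. The authors' replicate numbers mark no shared animal. Intervals are exact (Clopper-Pearson); upper limits for a count of 0 also use 3 counts. Positions are from GENCODE vM39. Named genes were the 10 highest and 10 lowest past the threshold with 50 CPM or more (CGE against MGE), the 6 smallest p with 20 CPM or more (genotype), the 6 highest and 6 lowest (Prox1), and list members furthest in each direction. Those of CGE against MGE had the same direction in all 4 libraries, and symbols of Gm plus digits or ending in Rik were excluded. Strand use in counting was not stated, so overlapping genes may share reads. Some genes are not reported here.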

Additional observations from a re-analysis of the deposited data

How the results depend on the processing

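Thinning to 5000 transcripts, other Adarb2 limits and the other filters kept the sign of both CGE share differences, except the Meis2-low nuclei for the share among CGE and MGE nuclei (2.04 percentage points, exact permutation p = 1; share of retained nuclei −0.046). The thinned run left out nuclei under 5000 transcripts and used looser limits. These were at least 2 transcripts of Adarb2, 1 of Gad1 and Gad2 together, and 1 of Lhx6 for MGE nuclei. Leaving out 1 library gave −1.98 to 0.267 and −12.4 to 4.66 percentage points, reversed without Dnmt1 KO replicate 1 (0.267 and 4.66) and without control replicate 1 (0.222 and 4.59). For CGE against MGE nuclei the count of 1043 became 1820 with no filter on low counts and 597 to 1057 without 1 library, lowest without Dnmt1 KO replicate 2. For genotype, DESeq2 called 4 genes in CGE nuclei, 3 in MGE nuclei and 2 for the interaction. With no filter the counts were 113, 179 and 57, and with batch as a covariate 74 and 1 (interaction not run). Leaving out 1 library gave 0 to 173, 0 to 2 and 0 to 93 (without control replicate 1, 59 interaction genes, and without control replicate 2, 93). The Prox1 count of 149 became 557 with no filter, 228 with doublet calls left out and 52 to 153 without 1 library. The cause of these shifts was not tested.

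The replicate number was not a shared animal between genotypes, and with it as a replicate block 0 genes were called in CGE nuclei and 0 in MGE nuclei. CGE and MGE nuclei of 1 brain are true pairs. With no replicate block, 878 genes were called for that contrast and 32 for Prox1.

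Of the genes named by size or by smallest p, none changed direction. All 320 alternative values of the 20 such genes for CGE against MGE kept their call, 23 of 94 in the CGE genotype comparison passed the threshold that the main value missed, and 22 of 170 for Prox1 lost their call. The choice of those 20 genes by size and by the same direction in all 4 libraries favors kept calls. Dnmt1 KO replicate 1 held 33 CGE nuclei, the fewest of the 4 libraries. The median standard error of the genotype comparison was 0.345 on the log2 scale over 9967 genes in CGE nuclei and 0.223 in MGE nuclei.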
